A study of Mus musculus with 5 samples.

Results

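The genes described are 7 in number: Cytl1, Clu, Cpe, Efna5, Cadm1, Klra2 and Asb2. They were chosen by their measured levels in these same libraries, namely high counts per unit depth (CPM, reads of a gene scaled by the counted reads of its library) in both intima libraries and low CPM in all adventitia libraries, with no numeric threshold. They are 7 of the 41388 genes in the tables. The difference between the groups is therefore a property of the choice, and it is given here as a description with no test. All 7 passed the filter on low counts, which kept 13408 genes, and their intima levels alone were enough for that.

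The study profiled macrophages sorted from the inner and the outer layer of the mouse aorta. The intima is the lining that faces the blood and the adventitia is the outer connective tissue. The 3 adventitia libraries came from ApoE-/- mice of strain C57BL/6 kept for 28 weeks on a high fat diet; the labels give 6 mice for the group. Their cells were taken from the adventitia of the whole aorta, abdominal part included, and sorted as PI- CD64+, where PI is a dye that enters dead cells and CD64 is an Fc receptor of macrophages. The 2 intima libraries came from C57BL/6 mice with no disrupted gene or diet in the labels, each from 5 pooled mice. Their cells were taken from the thoracic aorta after the adventitia had been removed, and sorted as PI- CD64+ CD11c+ MHC II+. Both groups were digested with collagenases and hyaluronidase. Layer, genotype, diet, aortic segment and sort gate differed together, so their parts in any difference cannot be told apart. The labels do not say how the 6 ApoE-/- mice were divided among libraries, and p-values therefore measure only the spread between these libraries, which may be technical.

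The adventitia libraries held 3941381 to 10076142 reads and the intima libraries 14970204 and 20806925. Although deeper, the intima libraries had reads on fewer genes, 17489 and 16374 against 23289 to 25738 in the adventitia. A floor of 3 reads was worth 0.144 CPM in the deepest library and 0.761 CPM in adventitia replicate 1, the shallowest. In bulk RNA, fewer cells of a type and less RNA per cell cannot be told apart, and this applies to every level below. Summed CPM of the macrophage markers was 23741, 24017 and 31835 for the adventitia libraries and 25440 and 20629 for the intima libraries; 0 of 10 were called by edgeR's quasi-likelihood test at an adjusted p under 0.05, with 2 at an unadjusted p under 0.05 and 0 called by DESeq2. Over all tested genes edgeR called 0.671% and DESeq2 9.05%.

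The 7 genes do not form a pathway. Cytl1, Clu and Cpe encode proteins of the secretory route: a small cytokine-like protein first known from blood progenitors and cartilage, the extracellular chaperone clusterin, and carboxypeptidase E, which trims basic residues from prohormone intermediates in secretory granules. Efna5, Cadm1 and Klra2 encode proteins of the cell surface: an ephrin ligand held by a lipid anchor that signals to Eph receptors on neighbouring cells, an adhesion molecule of the immunoglobulin superfamily, and a lectin-like receptor of the Ly49 family, whose members are best known on natural killer cells. Asb2 encodes an intracellular protein, the substrate-binding subunit of a cullin ubiquitin ligase that marks filamins for destruction.

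Promoters are shown so that genes chosen for the same libraries can be compared at their starts. Of the 7 genes 4 had an entry in the RefSeq promoter table (build GRCm38.p6). Clu, Cpe and Cadm1 had no entry. Each line gives bases upstream of the annotated start, 5′ to 3′ on the gene's strand. Capitals mark matches on either strand to GGGCGG (GC box), GAGGAA (PU.1 core) or CACGTG (E-box), so a match on the opposite strand reads CCGCCC or TTCCTC. The lines cover Cytl1 at chr5:37735269-37735518 on the plus strand, and on the minus strand Efna5 at chr17:62881318-62881567, Klra2 at chr6:131247363-131247482, and Asb2 at chr12:103356002-103356121 and chr12:103338391-103338510, the second being an internal start of Asb2.
Cytl1: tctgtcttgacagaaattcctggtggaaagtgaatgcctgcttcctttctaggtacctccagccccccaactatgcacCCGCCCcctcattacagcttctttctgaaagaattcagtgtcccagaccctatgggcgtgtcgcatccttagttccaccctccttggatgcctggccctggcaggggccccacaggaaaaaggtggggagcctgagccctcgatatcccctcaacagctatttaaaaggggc
Efna5: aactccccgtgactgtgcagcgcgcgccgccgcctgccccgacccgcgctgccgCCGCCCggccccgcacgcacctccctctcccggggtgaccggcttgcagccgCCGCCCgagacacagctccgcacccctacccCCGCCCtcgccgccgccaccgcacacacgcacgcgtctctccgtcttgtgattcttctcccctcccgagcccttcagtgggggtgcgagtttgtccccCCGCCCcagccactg
Klra2: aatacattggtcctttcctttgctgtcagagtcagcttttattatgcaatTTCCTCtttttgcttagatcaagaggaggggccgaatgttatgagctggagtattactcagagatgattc
Asb2, upstream start: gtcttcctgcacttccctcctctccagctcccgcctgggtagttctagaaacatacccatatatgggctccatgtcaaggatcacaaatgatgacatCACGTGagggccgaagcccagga
Asb2, internal start: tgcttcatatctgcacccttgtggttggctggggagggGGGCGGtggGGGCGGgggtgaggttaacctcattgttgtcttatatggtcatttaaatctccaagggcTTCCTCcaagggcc
Besides these, the full windows, from 250 bases before to 50 after the start, were searched on both strands for the TATA box TATAAA, the AP-1 site TGANTCA, the CRE site TGACGTCA, the heat shock site GAANNTTC and the nuclear receptor site AGGTCA. No match found overlaps another. Of 32851 promoters in the table, 35.7% held the GC box, 28.3% the PU.1 core, 7.15% the E-box, 13.6% the TATA box, 7.81% the AP-1 site, 1.79% the CRE site, 7.86% the heat shock site and 16.3% the nuclear receptor site. A match is a description of letters, not a site.

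No motif was common to the windows. Efna5 had 4 GC boxes before its start and 2 PU.1 cores after it. Its window was 73.3% G and C, above 94.5% of promoters, with a CpG observed-to-expected ratio of 1.1, above 98.1% of promoters. Cytl1 had 1 GC box, 55.0% G and C and a CpG ratio of 0.183. Klra2 had 1 PU.1 core, 1 AP-1 match across the start site, 39.3% G and C and a CpG ratio of 0.173. The 2 Asb2 windows were 53.0 and 56.7% G and C, with CpG ratios of 0.295 and 0.209, the upstream one holding an E-box and the internal one 2 GC boxes and 1 PU.1 core. Efna5 thus had the only CpG-rich window of the 4 genes.

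Hydrophobic stretches, a mark of signal peptides and membrane spans, were scored on each gene's annotated coding sequence as the highest mean Kyte-Doolittle hydropathy over 19 residues, with 1.6 as the threshold. Cytl1, Clu and Cpe passed it within the first 40 residues, at 2.68, 2.18 and 1.94, and nowhere later. Efna5 and Cadm1 passed it both early, at 2.15 and 1.63, and later, at 2.31 and 3.16. Klra2 passed it only after residue 40, at 3.33. Asb2 peaked at 1.53 and did not pass. Of 21738 coding genes, 43.0% passed anywhere and 19.3% within the first 40 residues. Thus 6 of the 7 genes had a stretch of the kind found in secreted or surface proteins, and the description as secreted and surface genes does not hold for Asb2.

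Cytl1 (ENSMUSG00000062329, chr5:37735519-37739820, plus strand, GRCm38) is a compact gene with 974 bases of exon. It had 12, 22 and 8 reads in adventitia replicates 1 to 3 and 9556 and 18936 reads in the intima libraries. Those reads were 3.04, 2.18 and 0.796 CPM in the adventitia against 638 and 910.1 CPM in the intima. The groups did not overlap: after TMM normalisation, which scales libraries to a common composition, the lower intima library was 285-fold above the highest adventitia library. With 0.5 CPM added to each level, so that genes at 0 in the adventitia have a ratio, this gap was the widest among the 13408 tested genes. The log2 difference, intima minus adventitia, was 8.89. The adventitia reads were few but above the floor in each library.

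Clu (ENSMUSG00000022037, chr14:65968483-65981548, plus strand) had 14, 19 and 14 reads in the adventitia and 5649 and 24257 in the intima. In CPM this was 3.55, 1.89 and 1.39 against 377 and 1166. Again no adventitia library reached the intima levels, with a 145-fold gap after normalisation and a log2 difference of 8.68. The intima libraries differed from each other by 2.76-fold, the widest ratio between them among the 7 genes. With 0.5 CPM added, only Cytl1, Apoe and H2-M2 had a wider gap than Clu, and the adventitia donors lack a working Apoe.

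Cpe (ENSMUSG00000037852, chr8:64592558-64693040, minus strand) had 31, 48 and 75 reads in the adventitia and 4289 and 5252 in the intima. The levels were 7.87, 4.76 and 7.46 CPM against 287 and 252 CPM. There was no overlap between groups, with a 35.2-fold gap and a log2 difference of 5.58. Unlike Cytl1 and Clu, its normalised level was the lower of the pair in intima replicate 2, at 0.787 of replicate 1.

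Efna5 (ENSMUSG00000048915, chr17:62604184-62881317, minus strand) lies in a long gene of 277134 bases, with the CpG-rich promoter printed above. It had 6, 8 and 9 reads in the adventitia and 2391 and 9829 in the intima, the lowest adventitia counts of the 7 genes summed over the group. As CPM, the adventitia stood at 1.52, 0.794 and 0.895 and the intima at 159.7 and 472. Both intima libraries stood above all adventitia libraries, with a 143-fold gap and a log2 difference of 8.46. Intima replicate 2 stood 2.64-fold above replicate 1, close to the ratio for Clu.

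Cadm1 (ENSMUSG00000032076, chr9:47530173-47857637, plus strand) was present in every adventitia library, with 73, 466 and 183 reads, against 6499 and 9563 in the intima. Its adventitia levels were 18.5, 46.2 and 18.2 CPM, the middle value standing apart. The intima libraries, at 434 and 459.6 CPM, had a ratio of 0.945, replicate 2 to replicate 1, after normalisation. Even so, no overlap was seen, with a 10.9-fold gap and a log2 difference of 4.24. Cadm1 was thus higher in the intima but not confined to it.

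Klra2 (ENSMUSG00000030187, chr6:131219223-131247362, minus strand) went against its description as low in all adventitia libraries. It had 2 reads in adventitia replicate 1 but 1092 and 481 in replicates 2 and 3, and 3055 and 4528 in the intima. The adventitia levels were 0.507 CPM (95% exact Poisson interval 0.0615 to 1.83, counting error only), 108 and 47.8 CPM, and the intima levels were 204 and 218 CPM. The groups did not overlap, but the lower intima library was only 2.19-fold above the highest adventitia library, and 635 tested genes, Klra2 included, had a gap at least as wide with 0.5 CPM added.

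At the mean rate of the other adventitia libraries, adventitia replicate 1 would have held 308 reads of Klra2 in place of 2. The spread of Klra2 over the adventitia libraries, 6.80 on the log2 scale with 0.5 CPM added, was the third widest of all tested genes, after Igkc and Gpx8. Only Klra2 and Sirpb1a, picked out here after their values were seen, were at 1 CPM or less in adventitia replicate 1 and at 40 CPM or more in both others. No tested gene did the same with replicate 2 or replicate 3 as the low library. The log2 difference of Klra2 was 2.20 with all libraries, 1.56 without adventitia replicate 1 and 3.22 without replicate 2. None of the 1898 distinct stretches of 50 bases in its annotated transcripts, the length of the reads, occurred in the annotated transcripts of another gene, and the same held for the other 6 genes.

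Asb2 (ENSMUSG00000021200, chr12:103321142-103356001, minus strand) had 22, 52 and 69 reads in the adventitia and 1080 and 3551 in the intima. Its levels were 5.58, 5.16 and 6.86 CPM against 72.1 and 171 CPM. The intima libraries were both higher, with a 12.3-fold gap and a log2 difference of 4.56, and intima replicate 2 was 2.11-fold above replicate 1. By CPM it was the lowest of the 7 genes in both intima libraries. It is also the only one of them overlapped by another annotated gene, Gm15523 on the opposite strand, which shares no exon base with it. Gm15523 had 2, 2 and 76 reads in the adventitia and 216 and 203 in the intima. The strand setting of the counting is not given in the sources used here, so reads on the exons of Gm15523 cannot be assigned to a strand. With no exon base shared, reads inside those exons lie outside the exons of Asb2.

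**Figure D1:**
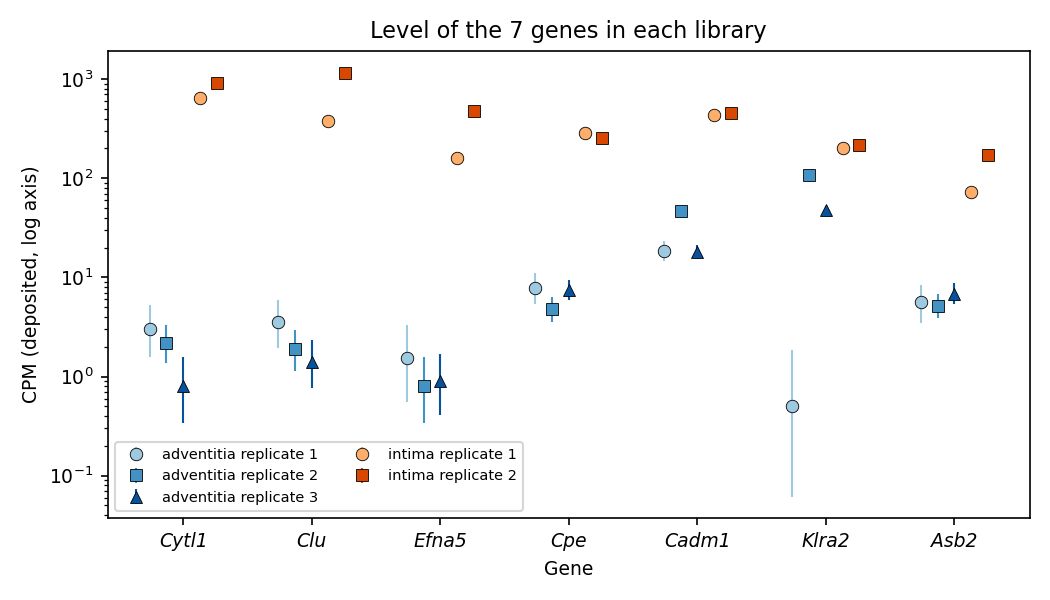
Deposited CPM on a log axis for each of the 7 genes in 3 adventitia libraries (blue) and 2 intima libraries (orange), with bars for the 95% exact Poisson interval of the read count. Intima points lie above adventitia points for every gene, and Klra2 differs from the rest in reaching 108 CPM in adventitia replicate 2 while at 0.507 CPM in replicate 1.

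Levels of different genes were compared per length, as RPKM, which divides CPM by the exon length of the gene. Cytl1 led in both intima libraries, at 655 and 934 RPKM, and its mean of 795 RPKM was the 55th highest among tested genes. The order of the others differed between the libraries. Clu was at 109.8 and 339 RPKM, Cpe at 137 and 121, Klra2 at 108 and 115, and Efna5 at 39.6 and 117. These ranges overlap, except that Cpe lay above Klra2 and Efna5. Cadm1, at 44.8 and 47.5 RPKM, and Asb2, at 20.4 and 48.2, came last by mean level and overlapped each other and Efna5. The gene with the lowest rank, Asb2, was still 1574th of the 13408 tested genes by mean intima RPKM.

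Clu, Efna5, Asb2 and Cytl1 were higher in intima replicate 2 after normalisation, whereas Cpe, Cadm1 and Klra2 were higher in replicate 1. Among all 13408 tested genes 6396 were higher in replicate 2. The median intima level was 111 RPKM for the 7 genes and 4.11 RPKM for all tested genes.

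How many other genes share the pattern depends on where the limits are set, and the 7 genes fell at different points. With at least 50 CPM in both intima libraries, 4 tested genes were at 1 CPM or less in all adventitia libraries, and none of the 7 was among them. At a limit of 5 CPM there were 18 such genes, 3 of them Cytl1, Clu and Efna5. At 10 CPM there were 36, now with Cpe and Asb2 as well. At 50 CPM there were 269, with Cadm1 added. Klra2 met none of these limits.

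**Figure D2:**
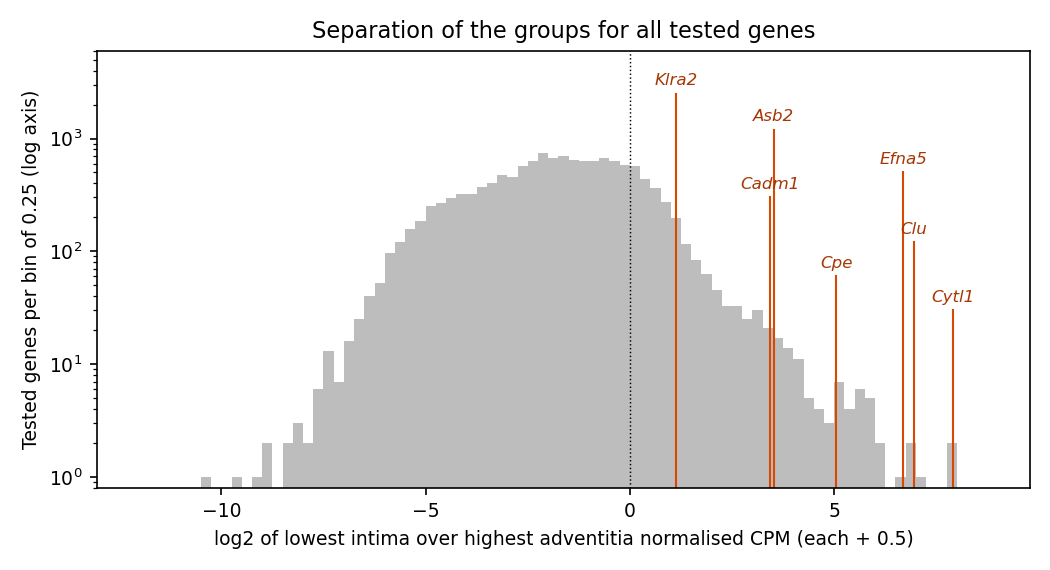
Histogram of all 13408 tested genes by the log2 ratio of the lowest intima to the highest adventitia normalised CPM (0.5 CPM added to each), with a log count axis and orange lines, of no meaning in height, at the 7 genes. Values above 0 mean groups that do not overlap. The 7 genes run from Klra2, with 635 tested genes (itself included) at or above its value, to Cytl1 at the far end.

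Over all tested genes, edgeR's quasi-likelihood test called 90 genes at a Benjamini-Hochberg adjusted p under 0.05, which is 0.671% of those tested, with 70 higher in the intima (0.522%) and 20 lower (0.149%). The count was 10, 52 and 46 without adventitia replicate 1, 2 or 3, and 389 and 136 without intima replicate 1 or 2. Genes that work with the 7 were then counted. They were listed by their known roles, with earlier results of these data known. Of 134 such genes 73 were tested, 1 was higher in the intima, 0 were lower, and the share called was 1.37%. At an unadjusted p under 0.05 there were 29 of the 73, against 3010 of all 13408 genes. The median log2 difference was -0.52 for the related genes and 0.14 for all tested genes. DESeq2 called 13 of the related genes, 6 higher and 7 lower, beside 9.05% of all genes to which it gave an adjusted p. The plot of related genes by list shows differences in both directions within most lists. At least 635 tested genes, Klra2 included, had every intima library above every adventitia library. Their full share is not given here, so lack of overlap below is only a description of values.

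**Figure D3:**
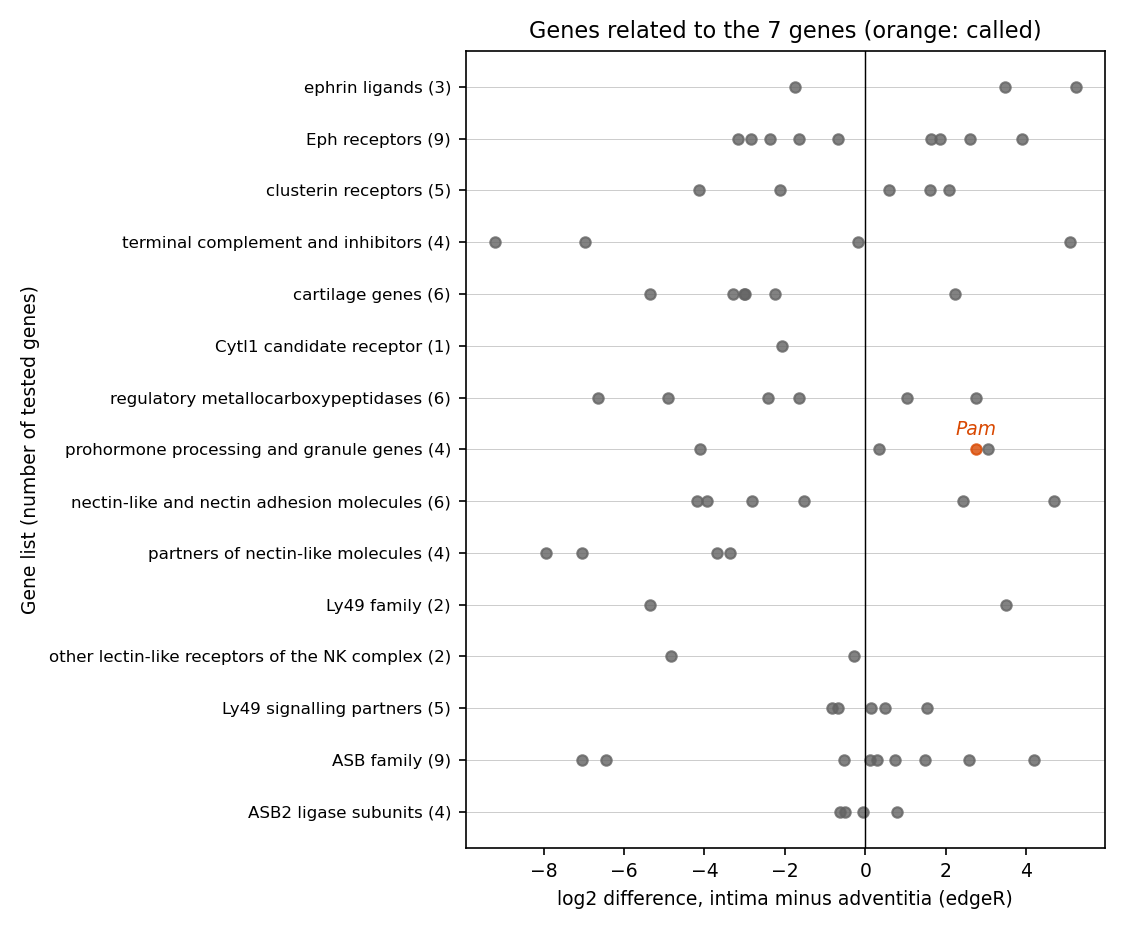
Log2 difference, intima minus adventitia, of the tested related genes, filamins left out, 1 row per list with the number of tested genes in brackets, orange where edgeR's adjusted p was under 0.05. Pam is the only called gene, and most lists have points on both sides of 0.

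The one call was Pam, from the list of prohormone processing genes. A single call among 73 tested related genes (1.37%, against 0.671% of all tested genes) is too few to mark a pathway. Pam, which converts glycine-extended peptides left by carboxypeptidase E into amidated ones, was at 85.1, 61.7 and 88.3 normalised CPM in the adventitia and 547 and 508 in the intima. The groups did not overlap, and the log2 difference was 2.75 (SE 0.42, edgeR adjusted p = 0.0116, higher in 2 of 2 intima libraries). The call was lost without adventitia replicate 1, 2 or 3, with edgeR adjusted p of 0.163, 0.101 and 0.0636, while the log2 difference stayed between 2.56 and 2.89 in every fit that left out a library.

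The prohormone convertases that act before Cpe did not share this level. Pcsk1 had 2, 3 and 3 reads in the adventitia and 0 in both intima libraries, so it was not tested. Pcsk2 had 1 read in each intima library. Furin, the convertase of most cells, was at 35.0, 70.0 and 58.5 normalised CPM in the adventitia and 70.5 and 68.4 in the intima, and was not called (edgeR adjusted p = 0.799). The granule genes Chga, Chgb, Vgf and Scg2 had at most 2 reads in any intima library, and Scg5 had none there. Scg3 had 5, 3 and 2 reads in the adventitia and 74 and 53 in the intima (edgeR adjusted p = 0.246). Thus 1 of 4 tested genes of prohormone processing was called, Pam, by both edgeR and DESeq2, with 2 of 4 at an unadjusted p under 0.05. Of the metallocarboxypeptidases related to Cpe, edgeR called 0 of 6, with 2 at an unadjusted p under 0.05 and 2 called lower by DESeq2, Cpxm1 and Cpxm2. The most abundant, Cpd, was at 100.2, 63.8 and 79.6 normalised CPM in the adventitia and 255 and 78.2 in the intima, where the groups overlapped. Aebp1, the next by RPKM, was at 7.44, 13.8 and 12.3 against 0.549 and 6.60 normalised CPM (edgeR adjusted p = 0.625).

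For Cytl1 the related genes were its candidate receptor Ccr2 and genes of cartilage. Ccr2, a chemokine receptor of monocytes, was at 466, 1023 and 806 normalised CPM in the adventitia and 128 and 239 in the intima. The groups did not overlap, but the log2 difference of -2.06 (SE 0.51) was not called by edgeR (adjusted p = 0.0868), though its unadjusted p was under 0.05 and DESeq2 called it lower. Of the cartilage genes, edgeR and DESeq2 called 0 of 6 tested, with 3 at an unadjusted p under 0.05. The most abundant of them, Comp and Sox5, were at 0.157 and 2.77 and at 0.705 and 14.0 normalised CPM in the intima. Acan, Col2a1 and Sox9, which define chondrocytes, had 4 reads or fewer in each intima library, beside 9556 and 18936 reads of Cytl1.

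For Clu the related genes were receptors that bind clusterin and the terminal complement proteins whose assembly it blocks. edgeR and DESeq2 called 0 of 5 receptors, with 2 at an unadjusted p under 0.05. Trem2, a lipid receptor of macrophages, was at 129, 173 and 229 normalised CPM in the adventitia and 352 and 184 in the intima, so the groups overlapped. Plxna4 was at 9.85, 17.4 and 11.9 against 72.7 and 38.0 normalised CPM, with no overlap and a log2 difference of 2.08 that was not called (edgeR adjusted p = 0.174).

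Terminal complement genes gave no edgeR call either, 0 of 4 tested, with 3 at an unadjusted p under 0.05. DESeq2 called C6 and C7 lower and Cd59a higher. C6, a pore component, had 94, 574 and 1079 reads in the adventitia and 12 and 1 in the intima (edgeR adjusted p = 0.0674). Cd59a, a surface inhibitor of the pore, was at 0.438, 1.33 and 0.701 normalised CPM against 48.6 and 9.82 (edgeR adjusted p = 0.109). Both sets of values lie apart, in opposite directions.

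For Efna5 the other ephrins and the Eph receptors were read. edgeR called 0 of 3 tested ephrins, with 1 at an unadjusted p under 0.05, and 0 of 9 tested receptors, with 2. DESeq2 called 1 in each list, Efnb2 and Ephb4, both higher. Efnb2, a ligand of arterial endothelium, was at 1.53, 0.666 and 5.80 normalised CPM in the adventitia and 194 and 9.87 in the intima, the libraries of the intima standing far apart (log2 difference 5.24, edgeR adjusted p = 0.0868). Efna1 had 10, 3 and 0 reads in the adventitia and 0 and 349 in the intima. Efna2, Efna3 and Efna4 had at most 1 read in an intima library. Efna5 was therefore the only ephrin of A type with more than 1 read in both intima libraries.

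Among the receptors Ephb4, the partner of Efnb2, was at 2.19, 1.43 and 1.4 normalised CPM against 33.5 and 16.7 (log2 difference 3.91, edgeR adjusted p = 0.137). Epha1 was at 4.38, 2.95 and 1.1 against 9.33 and 24.6 (edgeR adjusted p = 0.336). The groups did not overlap for either gene, and neither was called. The other A-type receptors that passed the filter were Epha2, Epha4, Epha7 and Epha10, none above 6.75 normalised CPM in any library.

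For Cadm1 the related molecules were the nectin-like and nectin families and their partners. edgeR called 0 of 6 and 0 of 4 tested, with 2 and 3 at an unadjusted p under 0.05, and DESeq2 called 1 and 0. That one was Nectin2, at 0.656, 0.571 and 0.901 normalised CPM in the adventitia and 3.84 and 33.8 in the intima (edgeR adjusted p = 0.137). Pvr was the most abundant, at 92.1, 40.8 and 40.1 normalised CPM against 3.37 and 36.6 (edgeR adjusted p = 0.401). The close relatives Cadm2 and Cadm3 had at most 3 reads in an intima library, and Cadm4 had 0 and 19. Crtam, the receptor for Cadm1 on lymphocytes, had 0 and 1 read in the intima, and Tigit had none there. Epb41l3, which links Cadm1 to the cytoskeleton, had 2 and 11 reads in the intima against 36, 5 and 32 in the adventitia. Cadm1 also marks conventional dendritic cells of type 1, and it is read here beside their other markers. Xcr1 had no reads in either intima library and Flt3 had 0 and 1, whereas Clec9a was at 5.80 and 22.5 normalised CPM there against 4.16, 0.381 and 0.901 in the adventitia (edgeR adjusted p = 0.327). Batf3, a transcription factor of these cells, was at 34.4 and 11.7 against 33.0, 30.4 and 13.8 normalised CPM, with overlap.

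For Klra2 the rest of the Ly49 family had few reads. edgeR and DESeq2 called 0 of the 2 tested members, with 1 at an unadjusted p under 0.05. Klra3 had 3, 44 and 2 reads in the adventitia and 384 and 166 in the intima, and Klra4 had 0 in each adventitia library and 1 and 233 in the intima. Klra17 had 1, 85 and 17 reads in the adventitia and 2 and 0 in the intima. The 7 members Klra1, Klra5, Klra6, Klra7, Klra8, Klra9 and Klra10 had at most 3 reads in any library. Of 13 other lectin-like receptors of the same gene complex 2 were tested and 0 called by either tool, with 1 at an unadjusted p under 0.05. Klrb1b was present in all libraries, at 9.63, 21.2 and 96.5 normalised CPM in the adventitia and 43.2 and 26.9 in the intima. Klrk1 had 1, 62 and 38 reads in the adventitia and 0 and 4 in the intima. Natural killer markers Ncr1 and Nkg7 had no reads in either intima library and at most 2 in any adventitia library. They were the only 2 of the 9 listed T and NK cell markers with no reads in either intima library. The list as a whole was not absent, with 0.200 and 38.4 summed CPM in the intima against 4.82, 2.78 and 7.16 in the adventitia. Of its 9 genes, 7 had no reads in intima replicate 1 and 3 had none in replicate 2.

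Signalling partners of Ly49 receptors were abundant in both groups. edgeR and DESeq2 called 0 of 5, with 1 at an unadjusted p under 0.05. That one was Ptpn6, the phosphatase recruited by inhibitory receptors, at 183, 199 and 180 normalised CPM in the adventitia and 414 and 681 in the intima (log2 difference 1.55, edgeR adjusted p = 0.0900). Tyrobp, the adaptor of activating receptors, was at 1167, 1655 and 1944 in the adventitia and 2639 and 891 in the intima, where the groups overlapped.

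For Asb2 the ligase core, its family and the substrate Flna were read. Cul5, Rnf7, Elob and Eloc, the other subunits, gave 0 calls of 4 by edgeR and by DESeq2 and 0 at an unadjusted p under 0.05, with a median log2 difference of -0.29. Eloc, the most abundant by CPM, was at 321, 315 and 225 normalised CPM in the adventitia and 296 and 105 in the intima, and Elob at 182, 181 and 189.6 against 161 and 76.0. Of the ASB family, which shares that core, edgeR called 0 of 9 tested, with 3 at an unadjusted p under 0.05, and DESeq2 called Asb6 higher and Asb4 and Asb7 lower. Asb6 was at 2.19, 3.33 and 5.10 normalised CPM in the adventitia and 65.1 and 66.7 in the intima, a log2 difference of 4.2 (edgeR adjusted p = 0.0768). Asb3 and Asb8, the most abundant of the tested family members per length, were at 54.2 and 81.6 and at 39.8 and 24.7 normalised CPM in the intima (edgeR adjusted p = 0.281 and 0.957). Flna, a filamin that Asb2 marks for destruction, was at 185, 136 and 147 normalised CPM against 443 and 451, with a log2 difference of 1.52 (edgeR adjusted p = 0.0900). It was thus higher in each intima library than in any adventitia library, without a call by either tool.

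By summed CPM, markers of endothelium and smooth muscle were higher in the intima, as the 7 genes were, whereas fibroblast markers were lower. The summed CPM of endothelial markers was 70.5, 58.5 and 38.0 in adventitia libraries but 1121 and 1221 in intima libraries. Of 18 in the list 16 were tested, 6 were called higher and 0 lower by edgeR, and DESeq2 called 10 higher. The called genes were the junction protein Pecam1, Vwf, the mucin Emcn, Esam, the phosphatase Ptprb and Ecscr. Pecam1 was at 3.28, 4.47 and 0.801 normalised CPM in the adventitia and 226 and 341 in the intima, a log2 difference of 6.64 (SE 0.75, edgeR adjusted p = 0.00220). Ptprb was at 1.75, 2.19 and 1.70 against 337 and 143, a log2 difference of 6.98 (SE 0.66, edgeR adjusted p = 0.000614).

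Ptprb alone of these 6 was called in all 10 alternative fits. Without adventitia replicate 1 it was also the only one called, with edgeR adjusted p of 0.118 for Pecam1, 0.118 for Ecscr, 0.0501 for Emcn, 0.165 for Esam and 0.215 for Vwf. Vwf was lost as well with upper-quartile scaling (0.0799) and without adventitia replicate 2 (0.0743), adventitia replicate 3 (0.140) and intima replicate 1 (0.0650). Esam was lost without adventitia replicate 2 (0.0721), adventitia replicate 3 (0.101) and intima replicate 2 (0.0629).

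Other endothelial markers that edgeR did not call were mixed. Cdh5, Tek, Tie1, Egfl7 and Eng were present in both intima libraries, with 1340 and 590, 330 and 1646, 238 and 1177, 1022 and 2499, and 149 and 960 reads. Each was above all adventitia libraries after normalisation, and DESeq2 called all of them but Eng. The rest were low or present in a single intima library. Kdr, the VEGF receptor, had 5, 19 and 18 reads in the adventitia and 3 and 1 in the intima, and Robo4 had 2 and 0 in the intima. The transcription factors Erg, Sox17 and Sox18 had 286, 38 and 28 reads in intima replicate 1 and 0 in replicate 2. Cldn5 and Nos3 had 0 and 1 reads in intima replicate 1 and 261 and 585 in replicate 2. Whether cells or RNA of the lining contributed to the levels of the 7 genes was not tested.

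For smooth muscle the sums were 59.4, 43.2 and 14.7 CPM against 294 and 91.8 CPM, with 1 of 7 called higher by edgeR, Tagln at 124 and 52.3 normalised CPM in the intima. That call was lost without adventitia replicate 1 (edgeR adjusted p = 0.118). Acta2 had 0, 5 and 29 reads in the adventitia and 2177 and 488 in the intima (log2 difference 6.35, edgeR adjusted p = 0.0738), and DESeq2 called it higher. Myh11 and Cnn1, the contractile genes that define the cell type, had 6 and 4 reads in intima replicate 1 and 0 in replicate 2. Des and Myocd had at most 4 reads in an intima library. In contrast, Smtn had 19, 4 and 10 reads in the adventitia and 183 and 69 in the intima. Lmod1 had 6, 4 and 6 against 1 and 190, and for Mylk the groups overlapped. Fibroblast sums went the other way, 766, 667 and 1517 CPM against 280.2 and 261 CPM, with 1 of 9 called lower by edgeR, Lum. That call was lost without adventitia replicate 1 (edgeR adjusted p = 0.174) or 3 (0.139). In edgeR 4 of the 9 were at an unadjusted p under 0.05, and DESeq2 called 4 lower, Dcn, Lum, Pdgfra and Dpt. Sums of conventional dendritic cell markers were also lower in the intima, 317, 239 and 431 CPM against 35.2 and 43.8 CPM. Here edgeR called 1 of 8 lower, Cd209a. That gene made up most of the adventitia sums. Without it the other 7 markers summed to 59.6, 38.4 and 42.7 CPM against 34.7 and 43.4 CPM, which overlap. Taken gene by gene, 5 of the 8 were at an unadjusted p under 0.05 in edgeR, and the median log2 difference was -4.36. DESeq2 called 3 lower, Xcr1, Zbtb46 and Cd209a. T and NK cell markers reached 4.82, 2.78 and 7.16 CPM against 0.200 and 38.4 CPM, B cell markers 6.60, 20.1 and 36.9 against 21.9 and 26.9 CPM, and mast cell markers 4.31, 11.9 and 8.55 against 0.468 and 0.0481 CPM. Neural and glial markers were at most 3.04 CPM in any library. The part of these cells in the levels of the 7 genes was not tested.

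**Figure D4:**
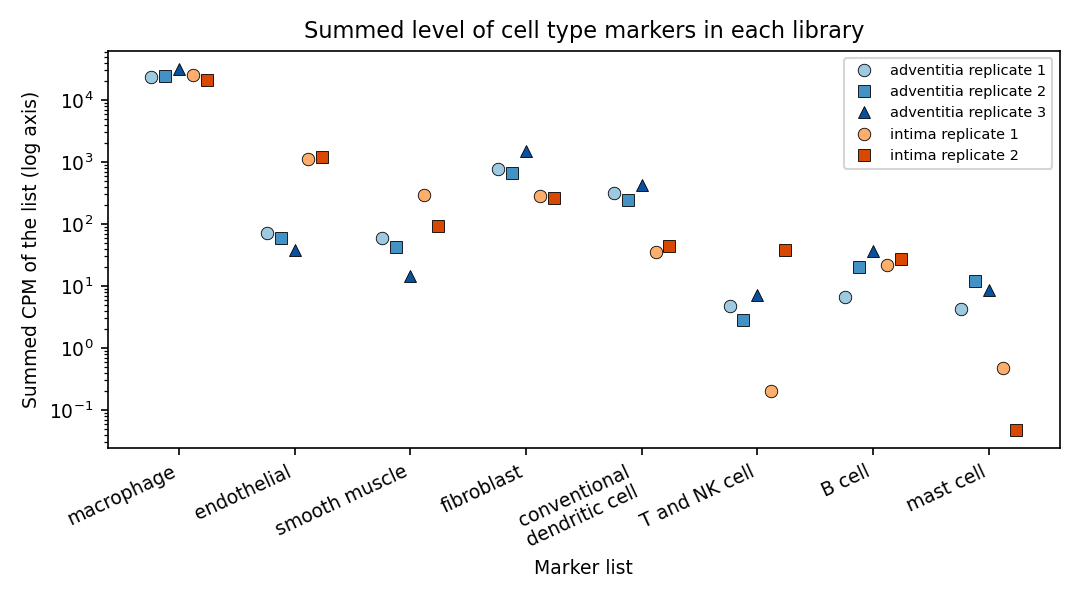
Summed deposited CPM of each cell type marker list on a log axis, 1 point per library (adventitia blue, intima orange). Macrophage sums lie together near the top, endothelial sums are 1121 and 1221 CPM in the intima against at most 70.5 CPM in the adventitia, fibroblast sums are higher in the adventitia, and so are conventional dendritic cell sums, through Cd209a.

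The sort markers were read in the same way. Fcgr1, which encodes CD64, was at 99.3, 249 and 281 normalised CPM in the adventitia and 179 and 146 in the intima. Itgax, which encodes CD11c and was part of the intima gate alone, was at 16.8, 33.8 and 27.2 against 73.4 and 274, a log2 difference of 2.74 that edgeR did not call (adjusted p = 0.0868) and DESeq2 called higher. The genes of MHC class II, also part of the intima gate alone, were abundant in both groups, and edgeR called none of H2-Aa, H2-Ab1 and H2-Eb1.

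Genes with the most similar profile were found by the root mean square difference of centred log2 normalised CPM over the 5 libraries, among tested genes with a regular symbol. The nearest to Cytl1 was Apoe (0.31), followed by Cav1 (0.71) and H2-M2 (0.79). The same 3 genes were nearest to Clu, at 0.60, 0.74 and 0.76. Efna5 was nearest to H2-M2 (0.59), Adamdec1 (0.66) and Apoe (0.68). These distances rest on 5 points that fall into 2 groups. Apoe was at 18.2, 18.1 and 10.9 normalised CPM in the adventitia and 5563 and 4409 in the intima, and the adventitia donors carry a disrupted Apoe.

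The remaining genes had other neighbours. Cpe was nearest to Nrep (0.19), Mmp10 (0.28) and Tspan6 (0.29), and Asb2 to Mall (0.19), Acads (0.23) and Epas1 (0.27). Cadm1 was nearest to Mxra8 (0.34), Gna14 (0.36) and Lpcat4 (0.37). Klra2 was nearest to Scimp (0.65), Gstt1 (0.69) and Mif4gd (0.75), all low in adventitia replicate 1 as Klra2 was: Scimp, for one, was at 1.75, 93.2 and 100.8 normalised CPM in the adventitia and 409 and 178 in the intima. With a pseudocount of 2 CPM in place of 0.5 CPM, 10 of these 21 neighbours were kept, and with scaling by library size alone 20 were kept.

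Genes beside the 7 on the chromosome were read to see whether the levels extended to them. Stk32b and Msx1, which flank Cytl1, had at most 6 reads in an intima library, as did Gulo beside Clu, Nxpe2 beside Cadm1 and the 2 genes beside Klra2. Otub2, 32680 bases from Asb2, was at 1.78, 1.89 and 1.29 CPM against 31.5 and 58.3 CPM. Scara3, 14738 bases from Clu, was at 2.28, 5.16 and 1.09 against 25.7 and 5.72 CPM. Msmo1, 25098 bases from Cpe, was at 27.1, 36.2 and 81.2 against 43.4 and 215 CPM, and its groups overlapped. Fbxl17, beside Efna5, was at 94.1, 35.9 and 23.3 against 21 and 56.5 CPM, also with overlap. Otub2 and Scara3 were thus the only flanking genes named here that were higher in both intima libraries than in every adventitia library.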

How the data were processed

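RNA with poly-A tails from sorted aortic macrophages was made into libraries with the SMARTer Ultra Low kit, amplified over 12 cycles and read as single reads of 50 bases, per the labels' protocols. The deposited tables hold 1 library each and list 41388 Ensembl genes, with columns of CPM, RPKM and read count, per the file headers. Tools named in the submitters' processing notes are featureCounts 1.4.5, STAR 2.0.4b and Subread, with build GRCm38; the annotation release and strand setting are not given in the sources used here. The authors' CPM and RPKM follow from their counts and the gene lengths alone, with 0 values off by more than 1e-06.

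Symbols came from a reference table (40254 of 41388 IDs). Counts were tested with edgeR 4.0.16 in R 4.3.3 (filterByExpr by group, minimum count 10, minimum total 15; TMM; glmQLFit and glmQLFTest; no covariates), with Benjamini-Hochberg adjustment over 13408 genes, and called at an adjusted p under 0.05. Counts were simulated with changes only in genes above a minimum mean CPM, so recovery at lower levels was not measured. On these counts the procedure recovered 6% of 4-fold, 56% of 16-fold, 90% of 64-fold and 94% of 256-fold changes. Of its 129 calls there, 6 were false. Changes near 4-fold were thus mostly missed, and a gene that was not called may still differ. Normalised CPM used TMM library sizes. Intervals (95%) and the floor of 3 reads cover counting error only, as PCR copies cannot be told from separate molecules here. Coding sequences and 50-base matches came from GENCODE M21 (GRCm38), promoters from RefSeq, and neighbouring genes from the deposited gene coordinates. Alternatives were other scalings, no filter, DESeq2 1.42.0, a block for replicate number, and fits without each library. Python 3.11.15, pandas 2.3.3, numpy 2.4.6, scipy 1.17.1 and matplotlib 3.10.9 were used.

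The 7 genes and the gene lists were chosen with earlier results of these data known. Named genes were the 7, the called members of each list or otherwise its 2 tested members with the highest mean RPKM, the sort markers, Apoe, the 3 nearest profiles of each gene, and the adjoining genes; other list members were picked after their values were seen. A related gene is not reported here.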

Additional observations from a re-analysis of the deposited data

How the results depend on the processing

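The 7 genes were chosen for higher intima levels in these libraries, so positive differences follow from the choice and test nothing. Their log2 differences were positive under all 70 alternative values computed (10 for each gene), and 65 moved by less than the spread between replicates. The other 5 were Cpe (5.10) and Asb2 (4.07) with upper-quartile scaling, and Clu (7.86), Efna5 (7.67) and Asb2 (4.01) without intima replicate 2. That spread was each gene's own, and for Klra2 it was so wide that values from 1.56 to 4.45 counted as unmoved. Upper-quartile scaling shifted the median of all genes by -0.48, library size alone by -0.23 and DESeq2 by -0.15, which bears on every direction given.

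The count of called genes was far less stable than those values. It was 90 in the edgeR fit, 386 with no filter beyond 1 read (31645 genes tested), 1190 with DESeq2, and 10 to 389 when a library was left out. The share of calls that were higher in the intima was 77.8%, against 61.3% with upper-quartile scaling (46 higher, 29 lower), 63.4% with library size alone (59 and 34) and 41.2% with DESeq2 (490 and 700). Related genes called numbered 1, against 2 with upper-quartile scaling, 6 with no filter, 13 with DESeq2 and 0 to 3 when a library was left out. Endothelial markers called numbered 6, against 10 with DESeq2 and 1 to 7 when a library was left out. The lowest count in each of these ranges came without adventitia replicate 1, the shallowest library; related genes were also at 0 without adventitia replicate 2 or 3. Apart from the filter and the libraries left out, which change what is tested, the cause was not tested. With 1 intima library left, its spread is taken to be that of the adventitia libraries.

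The replicate numbers are not stated to pair the samples, and deviations of samples with the same number correlated at 0.033 and 0.00063 across genes. With the replicate number as a block, 183 genes were called in all, 3 of them related genes and 6 endothelial markers, and the log2 difference of Klra2 became 4.45.

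Of 21 nearest profiles 10 were kept with a pseudocount of 2 CPM and 20 with library size alone. With 2 intima libraries the spread within that group rests on a single difference, and 2 reads of Klra2 in adventitia replicate 1 fix its level there only to within the interval given.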
